A study of Mus musculus with 2 samples.

Results

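Aminoacyl-tRNA synthetases are the enzymes that join each amino acid to its transfer RNA, and their genes are described here in CD4 T cells activated with antigen-presenting cells (APC) that did or did not carry an OX40 ligand transgene. Members were taken by gene symbol: every symbol of 1 letter followed by "ars", with or without a final 1 or 2, together with Eprs, Farsa, Farsb and the scaffold genes Aimp1 and Aimp2. This gave 34 genes, measured by 60 probe sets, of 17097 genes and 45141 probe sets in all. They comprised 17 cytosolic synthetases, 15 mitochondrial synthetases, whose symbols end in 2, and 2 scaffold proteins. Cars, Dars, Tars and Yars2 also meet the rule by name and are not analysed here.

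Each synthetase recognises 1 amino acid and the transfer RNAs that belong to it, and so supplies the charged transfer RNA that the ribosome uses. The nuclear genome encodes separate sets for the cytosol and for mitochondria, except that Gars and Kars each serve both compartments. A group of the cytosolic enzymes is held in the multisynthetase complex by scaffold proteins. Several cytosolic synthetase genes are known targets of ATF4, the transcription factor of the response to amino acid shortage, and Wars is also known as a gene induced by interferon-gamma.

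The RNA came from 6-week-old C57/Bl6 mice that carried a Foxp3-eGFP reporter, from which naive CD4 T cells (CD62L high, CD44 low, Foxp3-negative) were sorted. In both groups these cells were stimulated through the T cell receptor with anti-CD3 antibody in solution, and given splenocytes depleted of T cells and treated with mitomycin C at 50 ug/ml as APC. The APC were wild type (Wt APC) or came from OX40L-transgenic mice (OX40L-Tg APC), and living CD4 T cells were sorted again after 48 hours. The promoter of the transgene and the number of mice behind each sample are not given in the sources used here. There was 1 Affymetrix HT MG-430 PM array for each group, so no value has a replicate, no difference was tested, and the number of arrays limits the precision. In RNA from a whole sorted population, fewer cells of a type and less RNA per cell cannot be told apart.

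Values are intensities in arbitrary units on a linear scale, given with Wt APC first, and each difference is the log2 value with OX40L-Tg APC minus that with Wt APC. Probe sets differ in how strongly they bind, so intensities are compared between the arrays and not between genes. All 34 genes reached the floor, the median of all probe sets (14.7 units), on both arrays. A background level of 33.0 units was taken from genes restricted to other organs, and only Mars2 and Fars2 were below it. The highest value among those restricted genes was 74.9 units, and Ears2, Vars2 and Wars2 also lay under that on both arrays. Of the T cell markers, of which all but Cd4 are shared with CD8 T cells, 8 of 8 measured were above background, with summed intensities of 17979.6 and 14319 units. B cell markers were above background in 5 of 6, summing to 697 and 949 units, with Pax5 below it, and MHC class II genes in 4 of 5, summing to 2141 and 2956 units. Myeloid and dendritic markers were above background in 1 of 9, with Lyz2, Csf1r, Itgam and Adgre1 below it, at sums of 156 and 175 units. NK cell markers were above background in 1 of 3, at sums of 208 and 181 units, and CD8 T cell markers in 1 of 2, with Cd8a below it, at 219 and 270.2 units. Erythroid markers were above background in 1 of 2, at sums of 1176 and 219 units. The 3 adipocyte markers, checked because the extraction protocol in the labels names adipose tissue, were all below background, at sums of 26.1 and 25.1 units.

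Cytosolic synthetase transcripts read modestly higher with OX40L-Tg APC, whereas mitochondrial synthetase transcripts were spread about 0. Of 17 cytosolic genes 14 read higher, with a median difference of 0.20 and a range from -0.40 to 0.44. Of 13 mitochondrial genes above background 8 read higher, with a median of 0.04 and a range from -0.24 to 0.41. With Mars2 and Fars2, which were below background on both arrays, the median of all 15 was 0.02, or -0.04 with the mean of all probe sets of a gene. Among the 10541 genes above the floor, 54.0% read higher and the median difference was 0.02. The cytosolic median lay 0.18 above that of all 15 mitochondrial genes and 0.17 above that of the 13.

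No member differed by as much as 1.5-fold in either direction. The share of all genes above the floor that reached this size was 3.85% upward and 3.36% downward, and 1.56% and 1.17% reached 2-fold. At 1.2-fold, a smaller size adopted after the values were seen, 5 of 17 cytosolic genes were higher (Aars, Nars, Yars, Lars and Iars) and 1 was lower (Wars). Of the mitochondrial genes, Cars2 and Tars2 were higher by that size, and of those above background 0 were lower by it. The same sizes were reached by 14.3% and 12.4% of all genes above the floor. All 17 cytosolic genes had a mean of 250 units or more, where 55.9% of 4485 genes read higher, 9.45% were past 1.2-fold upward and 7.80% downward, and the middle 50% of differences ran from -0.08 to 0.12.

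**Figure D1:**
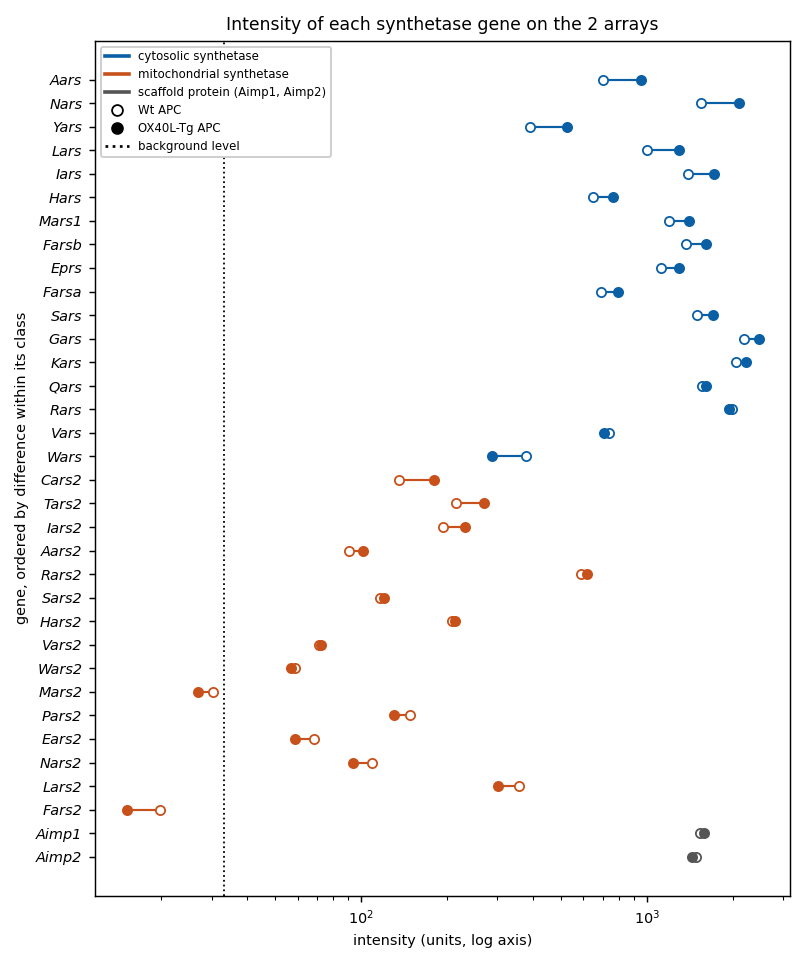
Intensity of each of the 34 genes on the Wt APC array (open circles) and the OX40L-Tg APC array (filled circles), on a log axis in units, ordered by difference within the cytosolic, mitochondrial and scaffold groups. Aars and Nars have the widest rightward steps, Wars the widest leftward step among cytosolic genes, and Mars2 and Fars2 lie left of the dotted background level.

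Among the cytosolic genes, the largest positive differences belonged to the enzymes for alanine, asparagine, tyrosine and leucine. Aars, which charges alanine, read 701 and 952 units, a difference of 0.44, and its other probe set differed by 0.33. Nars, the asparagine enzyme, read 1548 and 2100.3 units, also a difference of 0.44, with 0.26 in its other probe set. Both genes were thus higher with OX40L-Tg APC in each of their probe sets. Yars, which charges tyrosine, read 390.4 and 527 units, a difference of 0.43 from 1 probe set. Lars, the leucine enzyme of the cytosol, read 998 and 1297 units, a difference of 0.38, also from 1 probe set. Iars, which charges isoleucine, read 1391 and 1714 units, and its probe sets differed by 0.30 and 0.27. These 5 genes ranged from 1.23-fold to 1.36-fold higher.

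A middle group differed by 0.17 to 0.24. Hars, the histidine enzyme, read 646 and 762 units, and Mars1, the methionine enzyme that also charges the initiator transfer RNA, read 1192 and 1408 units, each a difference of 0.24. Eprs, a fused enzyme for glutamate and proline, read 1123 and 1292 units, a difference of 0.20, and its 3 probe sets above background lay between 0.20 and 0.24. Sars, the serine enzyme, read 1498 and 1703 units, and its probe sets differed by 0.18 and 0.22. All of these stood above the middle 50% of well measured genes.

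Farsb and Farsa encode the beta and alpha subunits of the phenylalanine enzyme, and their differences were close. Farsb read 1371 and 1611 units, a difference of 0.23, and Farsa 694 and 794 units, a difference of 0.19. The 3 probe sets of Farsb lay between 0.17 and 0.23. Of the 2 further probe sets of Farsa, the 1 above background differed by -0.16, opposite in sign to its brightest, and the mean over all 3 was -0.057. Gars, the glycine enzyme, read 2188 and 2467 units, a difference of 0.17.

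Kars, Qars, Rars and Vars differed by little. Kars, the lysine enzyme, read 2057 and 2226 units, a difference of 0.11. Qars, the glutamine enzyme, read 1558 and 1611 units, and its 3 probe sets above background ran from -0.05 to 0.05. Rars, for arginine, read 1991 and 1936 units, a difference of -0.04, and Vars, for valine, 739 and 709 units, a difference of -0.06.

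Wars, the tryptophan enzyme, was the exception among the cytosolic genes. It read 378 and 287 units, a difference of -0.40, or 1.32-fold lower. All 3 of its probe sets were lower, at -0.40, -0.35 and -0.11. Ifng, which encodes interferon-gamma, read 351 and 198 units on the same arrays, a difference of -0.83, and its part in the value of Wars was not tested.

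**Figure D2:**
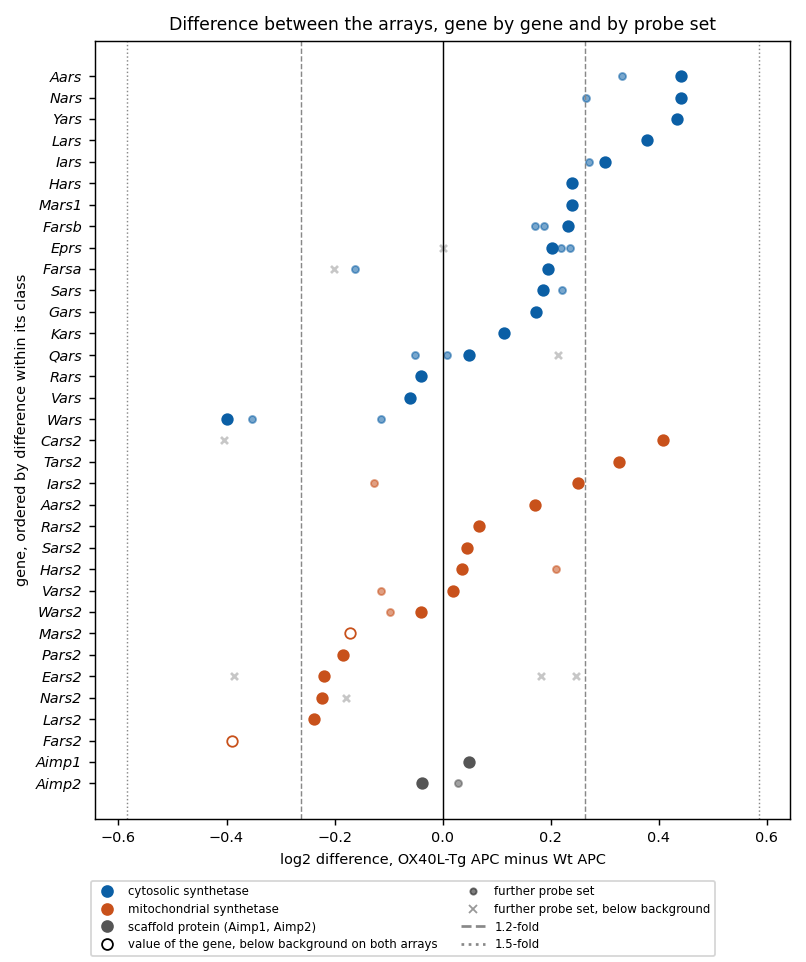
Log2 difference between the arrays for each gene (large points) and for its further probe sets (small points, crosses where below background), with 1.2-fold and 1.5-fold marked by dashed and dotted lines. No gene lies beyond 1.5-fold, and the 3 probe sets of Wars all lie left of 0.

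Probe sets of the same gene gave 1 view of technical scatter. In 14 members with at least 2 probe sets above background, the pooled SD of the differences within a gene was 0.12. In 9 of the 14 genes these probe sets all had the same sign. This scatter covers probe choice within the same 2 arrays and says nothing of the spread between cultures or mice. Of the members, 18 rest on 1 probe set above background. The 41 genes restricted to other organs, at most 74.9 units, gave a view of scatter at low intensity. Their differences had quartiles of -0.17 and 0.08 and ran from -0.44 to 0.86.

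The position of an enzyme in the multisynthetase complex made little difference to the medians. The 7 cytosolic synthetases of the complex that were measured (Eprs, Iars, Lars, Mars1, Qars, Rars and Kars) had a median difference of 0.20, against 0.21 for the 10 outside it. Within the complex the values ran from -0.04 for Rars to 0.38 for Lars. The scaffold proteins stayed near 0. Aimp1, which binds the arginine and glutamine enzymes, read 1531 and 1583 units, a difference of 0.05. Aimp2, which holds the lysine enzyme, read 1484 and 1445 units, with -0.04 and 0.03 in its probe sets. Eef1e1, the third scaffold protein of the complex and not a member by symbol, read 1866 and 2173 units, a difference of 0.22. Rars, Qars and Aimp1, known to form a subcomplex and singled out after their values were seen, differed by -0.04, 0.05 and 0.05.

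Enzymes of both structural classes were represented in each compartment. Class I enzymes carry a Rossmann-fold catalytic domain and class II enzymes an antiparallel beta-sheet fold. The 8 cytosolic class II genes all read higher, from 0.11 to 0.44 with a median of 0.21. Of the 8 cytosolic class I genes 5 read higher, from -0.40 to 0.43 with a median of 0.14. Eprs, which has a domain of each class, was left out of this split. The mitochondrial medians were -0.01 for 8 class I genes, Mars2 among them, and 0.04 for 7 class II genes, Fars2 among them.

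Synthetase genes known as ATF4 targets had a larger median difference than the remaining cytosolic genes. Of the 10 measured, 9 read higher (Aars, Eprs, Gars, Iars, Lars, Mars1, Nars, Sars and Yars), with a median difference of 0.27, and the exception was Wars. The 7 cytosolic genes off that list (Farsa, Farsb, Hars, Kars, Qars, Rars and Vars) had a median of 0.11, and 5 of them read higher. All 5 cytosolic genes that were at least 1.2-fold higher stood on the list, as did the 1 that was at least 1.2-fold lower. The list was chosen with earlier results of these arrays known and is not independent evidence of its direction. Atf4 itself read 2026 and 2750.2 units, a difference of 0.44.

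The starts of these genes were read for the letters that ATF4 is known to bind together with C/EBP factors, because the genes of the list mostly read higher together. RefSeq windows of 300 bases, from 250 before to 50 after the start (mouse build GRCm38.p6), were held for 26 of the 34 members, and not for Hars, Hars2, Lars, Nars, Pars2, Rars, Vars and Wars. The motif searched was TGATGNAA on both strands, and it was present in 4 of the 26 genes, Aars, Gars, Iars and Yars. It was present in 1219 of all 27025 genes with a window, which is 4.51%, whether or not they were above the floor. All 26 members were above the floor, where 232 genes held the motif and 8348 did not. All 4 genes are among the 7 on the ATF4 list that had a window, and 0 of the other 19 members held it. The list was made of genes already known as ATF4 targets, so this split is not independent evidence. The other 19 are mostly mitochondrial genes and thus not a matched set. The 30 bases around a match in each gene are shown, with the motif in capitals, because it is what the 4 genes share.
Aars (chr8:111033840-111033869, plus strand): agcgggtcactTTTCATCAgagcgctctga
Gars (chr6:55037960-55037989, plus strand): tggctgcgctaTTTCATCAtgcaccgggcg
Iars (chr13:49682126-49682155, plus strand): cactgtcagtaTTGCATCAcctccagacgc
Yars (chr4:129189895-129189924, plus strand): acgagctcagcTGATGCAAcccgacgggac

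The match shown begins at base 10 after the start in Aars, at base 8 in Iars and at base 4 in Yars, and in Gars it begins 30 bases before the start. Aars, Iars, Yars and Gars differed by 0.44, 0.30, 0.43 and 0.17. The 3 genes of the list with a window but no match, Eprs, Mars1 and Sars, differed by 0.20, 0.24 and 0.18. Across all genes above the floor with a window, 22.0% of 232 with the motif were at least 1.2-fold higher, against 14.0% of 8348 without it, and both medians were 0.02. A match is a run of letters and not a shown site, and its absence says only that these letters are not in the window.

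The 250 bases before the start are printed for 4 of the 5 members with a window that had the most positive differences, the cytosolic Yars and Iars and the mitochondrial Cars2 and Tars2. Capitals mark TGATGNAA and the palindrome CACGTG, the E-box bound by Myc and related factors, and the 2 motifs do not overlap here.
Yars (chr4:129189653-129189902, plus strand): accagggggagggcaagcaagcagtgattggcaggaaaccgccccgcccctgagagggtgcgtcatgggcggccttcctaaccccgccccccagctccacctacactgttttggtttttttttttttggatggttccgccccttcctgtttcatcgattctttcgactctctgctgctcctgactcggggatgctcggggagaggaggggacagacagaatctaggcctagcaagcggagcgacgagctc
Iars (chr13:49681880-49682129, plus strand): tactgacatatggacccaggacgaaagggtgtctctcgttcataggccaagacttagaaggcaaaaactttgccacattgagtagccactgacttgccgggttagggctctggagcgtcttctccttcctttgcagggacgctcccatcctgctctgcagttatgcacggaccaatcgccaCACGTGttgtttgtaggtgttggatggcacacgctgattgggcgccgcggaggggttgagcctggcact
Cars2 (chr8:11550772-11551021, minus strand): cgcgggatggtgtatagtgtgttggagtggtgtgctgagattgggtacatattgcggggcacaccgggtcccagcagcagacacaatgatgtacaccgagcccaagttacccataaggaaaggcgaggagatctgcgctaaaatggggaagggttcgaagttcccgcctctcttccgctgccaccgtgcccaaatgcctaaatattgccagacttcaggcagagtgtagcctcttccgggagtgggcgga
Tars2 (chr3:95754978-95755227, minus strand): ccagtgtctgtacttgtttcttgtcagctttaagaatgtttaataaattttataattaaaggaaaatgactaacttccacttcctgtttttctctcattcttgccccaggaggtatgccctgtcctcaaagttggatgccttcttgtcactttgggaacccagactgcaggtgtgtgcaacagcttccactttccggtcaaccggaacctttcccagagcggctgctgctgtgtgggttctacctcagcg

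Among these stretches Iars holds the E-box, while Yars, Cars2 and Tars2 hold neither motif. The stretch of Aars is not printed, and an E-box begins 146 bases before its start. Over the full windows CACGTG was present in 4 of the 26 members, Aars, Iars, Farsb and Ears2, whose differences were 0.44, 0.30, 0.23 and -0.22. It was present in 8.09% of all genes with a window, whether or not they were above the floor, as all 26 members were. Among genes above the floor with a window, 1005 held CACGTG and 7575 did not. Of these, 15.8% and 14.0% were at least 1.2-fold higher, and the medians were 0.04 and 0.01. Fars2, whose values were below background, also has a window, which held neither motif.

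Mitochondrial synthetases did not share a direction. Cars2, which charges cysteine, read 136 and 180.0 units, a difference of 0.41, and its other probe set, below background, read lower with OX40L-Tg APC at -0.41. Tars2, the threonine enzyme, read 215 and 269 units, a difference of 0.33 from a single probe set marked as open to cross-hybridisation. Iars2, for isoleucine, read 194 and 231 units, a difference of 0.25, and its other probe set differed by -0.13. The higher values in this group thus rest on 1 probe set each, or on probe sets that disagree, and with the mean of all probe sets Cars2 was at 0.00 and Iars2 at 0.06.

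Aars2, the alanine enzyme of mitochondria, read 90.5 and 102 units, a difference of 0.17. Rars2, for arginine, read 589 and 617 units, a difference of 0.07. Sars2, for serine, read 117 and 121 units, a difference of 0.04. Hars2, for histidine, read 207 and 213 units, and its probe sets differed by 0.04 and 0.21. Vars2, for valine, read 71.2 and 72.1 units, with differences of 0.02 and -0.11, and Wars2, for tryptophan, 58.6 and 56.9 units, with -0.04 and -0.10. The differences of this middle group, Aars2 apart, were no larger than the scatter of 0.12 between probe sets, except in the second probe set of Hars2.

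Of the mitochondrial genes above background, Lars2, Nars2, Ears2 and Pars2 differed by -0.24 to -0.19, and Wars2 by -0.04. Lars2, the leucine enzyme, read 356 and 302 units, a difference of -0.24. Nars2, for asparagine, read 109 and 93.6 units, a difference of -0.22. Ears2, for glutamate, read 68.6 and 58.9 units, also -0.22, while its 3 further probe sets, all below background, ran from -0.39 to 0.25 and the mean of all 4 was -0.04. Pars2, for proline, read 148 and 129.9 units, a difference of -0.19. Mars2, for methionine, read 30.4 and 26.9 units and Fars2, for phenylalanine, 19.8 and 15.1 units, both below background, so neither gives a measured difference.

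**Figure D3:**
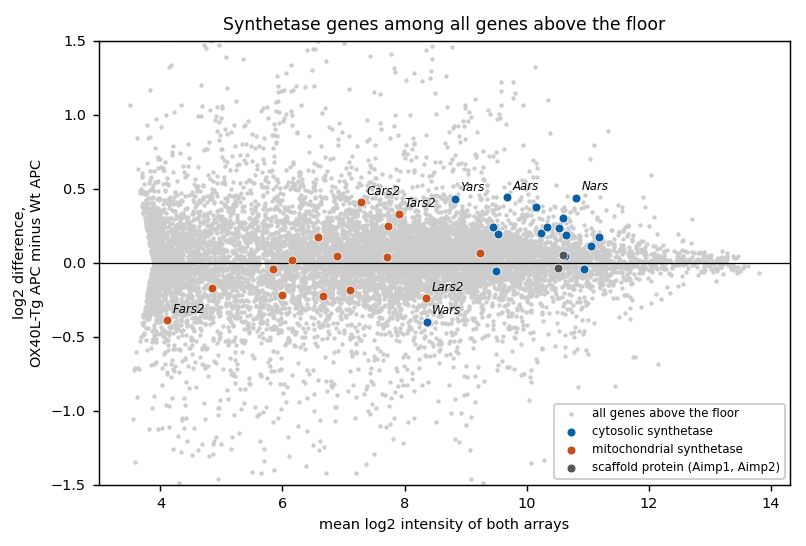
Log2 difference (vertical axis, cropped at 1.5 in size, which leaves out 117 genes) against mean log2 intensity of both arrays for all 10541 genes above the floor (grey), with synthetases and scaffold proteins in colour. The cytosolic genes lie at high intensity and mostly above 0, and most mitochondrial genes lie at lower intensity and on both sides of 0.

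The cytosolic and mitochondrial genes also differed in intensity. All 17 cytosolic genes but only Lars2 and Rars2 of the 15 mitochondrial ones had a mean of 250 units or more, and those 2 differed by -0.24 and 0.07. Whether RMA understates a difference at low intensity was not tested, and the effect of intensity and that of compartment cannot be told apart here. For all genes of 250 units or more, the lower and upper quartiles of the differences were -0.08 and 0.12. For all genes between the floor and 250 units, these quartiles were -0.16 and 0.19. Of all genes between the floor and 250 units, 17.8% were past 1.2-fold upward and 15.8% downward. In that range 2 of the 11 mitochondrial genes above background were at least 1.2-fold higher and 0 were lower, with a median of 0.04.

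Cytosolic and mitochondrial enzymes for the same amino acid can be set side by side. For 9 amino acids with 1 gene in each compartment and the mitochondrial gene above background, the cytosolic difference was the larger in 6, and the median gap was 0.14. The widest gaps were those of asparagine, 0.44 for Nars against -0.22 for Nars2, and of leucine, 0.38 for Lars against -0.24 for Lars2. For isoleucine the pair stood together, at 0.30 and 0.25. The order was turned for valine, for arginine and most of all for tryptophan, with -0.40 for Wars against -0.04 for Wars2. Eprs, at 0.20, stood against -0.22 for Ears2 and -0.19 for Pars2. Hars and Hars2 are next to each other in the genome, and differed by 0.24 and 0.04.

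**Figure D4:**
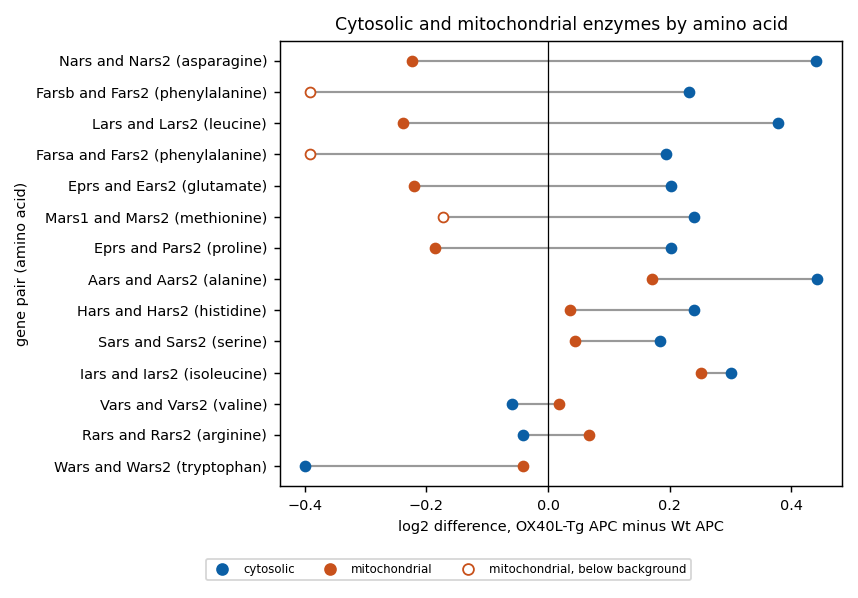
Log2 difference of the cytosolic (blue) and the mitochondrial (orange) synthetase gene for each amino acid, joined by a line and ordered by the gap; open circles are below background. The blue point is to the right for all but valine, arginine and tryptophan.

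Other genes of transfer RNA charging and of translation were read from lists. For comparison, 54.0% of all genes above the floor read higher, and 14.3% and 12.4% were at least 1.2-fold higher and lower. Of 12 further charging factors above the floor, 11 were above background, and Eef1e1, given above with the complex, was counted here too. Among the 12, 9 read higher, with a median difference of 0.15, and 1 was at least 1.2-fold higher. That gene was Xpot, which exports transfer RNA from the nucleus, at 1016 and 1299 units, a difference of 0.35. Qrsl1, a subunit of the mitochondrial amidotransferase that yields transfer RNA charged with glutamine, differed by 0.23, and Tarsl2, a second threonine enzyme, by -0.22. Mitochondrial translation factors had a median of 0.11, with 6 of 7 higher and 0 at least 1.2-fold different. Among them Gfm2, a ribosome recycling factor, differed by 0.21 and Mtif2, an initiation factor, by 0.14. Cytosolic elongation and release factors had a median of 0.10, with 7 of 11 higher, Gspt2 among the 7. Gspt1, a release factor, differed by 0.23, and Gspt2, the only one past 1.2-fold, read under the background level with either APC.

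Genes of the amino acid response had a larger median difference than the synthetases. Of 27 above the floor 24 read higher, 21 by at least 1.2-fold and 9 by at least 1.5-fold, with a median difference of 0.44, and 1 was at least 1.2-fold lower. The shares of all genes above the floor were 54.0% higher, 14.3% by 1.2-fold and 3.85% by 1.5-fold, and 12.4% lower by 1.2-fold. Cth, which makes cysteine, read 32.8 and 166 units, and Chac1, which degrades glutathione, 42.2 and 180.4 units, a difference of 2.10. Nupr1, a stress-induced nuclear protein, read 20.9 and 54.7 units, and Trib3, a pseudokinase, 47.3 and 106 units, a difference of 1.16. The Wt APC values of Cth and Nupr1 were below background. The list was drawn up with earlier results of these arrays known and is not independent evidence of its direction. On the same arrays the summed B cell, MHC class II, myeloid and CD8 T cell markers were also higher, as given above. The summed T cell, NK cell and erythroid markers were lower, with erythroid sums of 1176 and 219 units. The part of these marker differences in the differences of the synthetases was not tested.

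**Figure D5:**
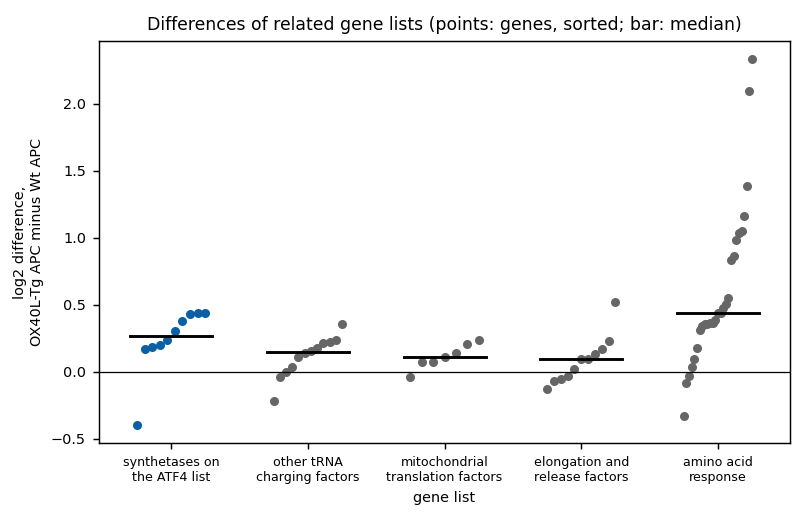
Log2 difference of each gene above the floor (points, sorted within a list) and the median (bar) for the synthetases on the ATF4 list and 4 related lists. The medians are 0.27 for the synthetases, 0.15, 0.11 and 0.10 for the 3 translation lists and 0.44 for the amino acid response.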

How the data were processed

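The 2 columns deposited by the authors hold linear intensity values per probe set. Per the submitters' processing notes they come from RMA, which corrects background, equalises the arrays and summarises probes. Its version and the arrays normalized together are not given in the sources used here. A shift in the RNA content of the cells as a whole cannot be seen after that step. The table has 45141 probe sets, of which the platform annotation pairs 28898 with 1 symbol and 551 with several, and 15692 are not listed. RefSeq gene numbers (GRCm38.p6) matched 28689 of the 28898 and changed 0 symbols. Log2 was taken, and a gene took its probe set with the highest mean. A gene was counted as above the floor if it reached the median of either array. The background level is the 95th percentile of both arrays' values of genes restricted to other organs, of which 41 had a value. Tg was removed from them after its value was seen, because Sla lies within that gene.

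With 1 array per group, no test, SE or p-value exists. Members and lists were chosen with earlier results of these data known. Any member may be named. Other genes are named from the lists, up to 4 per list by size of difference, with Ifng, Atf4 and defining markers. Promoter windows were chosen for the 5 most positive differences with a window, 1 of which is not reported here, and the 2 mitochondrial genes with the largest differences were looked at. Alternatives changed the probe set rule, the floor, the scaling and the log offset. Python 3.11.15, numpy 2.4.6, pandas 2.3.3, statsmodels 0.14.6 and matplotlib 3.10.9 were used. The code was tested on simulated data.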

Additional observations from a re-analysis of the deposited data

How the results depend on the processing

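The cytosolic median stayed between 0.18 and 0.22 and the mitochondrial median between -0.04 and 0.06 under 7 other settings and under the exclusion, added after the values were seen, of members below background. The cytosolic median stayed above the mitochondrial one in each, by 0.15 to 0.24. No member passed 1.5-fold under any of the 7 settings. With 1.2-fold in place of 1.5-fold, chosen after seeing the data, 7 members were higher and 2 lower, 1 of which, Fars2, was below background. Of 231 values of single members under these settings, 226 moved by less than the SD of 0.12 between probe sets. That count says little of stability, because many of these values could not move by that much. A changed floor leaves a member's value as it is, and the intensity-dependent scaling shifted members by at most 0.03. Members with 1 probe set cannot change under a probe set rule. With the mean of all probe sets, which takes in dim ones, Farsa turned to -0.057, and Cars2 was 0.00, Ears2 -0.04 and Iars2 0.06. No paired analysis was possible because each group has 1 array. Intensity below background limits Mars2 and Fars2, and Ears2, Vars2 and Wars2 lie within the range of genes restricted to other organs.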
